A study of Mus musculus with 12 samples.

Results

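The comparison is of Nr4a3 knockout (KO) with wild type (WT) vascular smooth muscle cells on day 14 of culture, over all genes. Its members were the 6 libraries whose labels give that day, 3 of each genotype, out of 12 libraries in the series. The KO group carries the genotype label NR4A3KO and the treatment label β-GP (beta-glycerophosphate), and the WT group the genotype label WT and the treatment label none. The cells of both groups were primary cells of the mouse aorta, and the protocols put 10 mM beta-glycerophosphate in the medium of every group. Whatever the treatment label stands for therefore cannot be told apart from the genotype. The sources used here give neither the removed part of the gene nor the strain, sex or age of the mice, and do not say whether replicates are separate animals or cultures. All p-values hence rest on how far these libraries spread, and that spread may be technical.

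The NR4A receptors Nr4a1, Nr4a2 and Nr4a3 are nuclear receptors without a known regulating ligand, which bind DNA mostly as single molecules and are switched on quickly by growth factors, cytokines and stress. In the vessel wall they are known from smooth muscle proliferation, inflammation and the response to injury. Beta-glycerophosphate releases phosphate and is used to make cultured smooth muscle cells deposit calcium phosphate, a model of vascular calcification. The comparison asks how expression differs in the knockout cells late in such a culture.

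Nr4a3 was lower in KO and its relatives were higher. Nr4a3 stood at 34.6, 60.3 and 54.7 CPM in the KO libraries, against 241, 260.1 and 220.2 CPM in the WT libraries, where CPM are counts relative to the library total after TMM scaling, on the usual CPM scale (log2 fold change -2.27 ± 0.19 SE, edgeR adjusted p = 2.60e-05). All KO libraries were below all WT libraries, and reads remained in each of them. Nr4a2 stood at 60.4, 49.9 and 72.96 CPM in the KO libraries, against 16.7, 21.6 and 25.4 CPM in the WT libraries (log2 fold change 1.53 ± 0.18 SE, edgeR adjusted p = 2.11e-04). Nr4a1 stood at 49.9, 42.6 and 77.5 CPM in the KO libraries, against 22.7, 34.2 and 42.2 CPM in the WT libraries, groups that nearly touch (log2 fold change 0.78 ± 0.26 SE, edgeR adjusted p = 0.037). The call of Nr4a1 was lost with library size alone (adjusted p = 0.0518) and without KO replicate 1 (0.0654), KO replicate 3 (0.164) or WT replicate 2 (0.0825). The tests are edgeR's quasi-likelihood F test with Benjamini-Hochberg adjustment over 14905 genes, and "called" means an adjusted p below 0.05.

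The KO libraries held 14369933 to 18797157 counts and the WT libraries 13848199 to 19519654. Mitochondrial genes took 4.41% to 4.79% of the counts in KO and 3.26% to 3.42% in WT. WT replicate 1 stood apart from the other WT libraries. It was at least 2-fold from their mean in 433 genes, on the log2(CPM + 1) scale, against 72 genes each for WT replicates 2 and 3 and 1 to 4 genes for the KO libraries. Of the 433 genes, 316 (73.0%) deviated toward KO, 138 were above the other WT libraries and 295 below. The other WT libraries deviated toward KO in 36 (replicate 2) and 48 (replicate 3) of their 72 genes. Deviation and direction were measured from the same mean, which by itself raises such shares. Each library was also placed on the line from the mean of the other WT libraries (0) to the mean of the other KO libraries (1). The KO libraries stood at 0.983 to 0.986, WT replicate 1 at 0.155 and WT replicates 2 and 3 at -0.011 and 0.030.

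The genotype labels of day 14 also have to be read beside those of day 1. Over 15956 genes the day-14 WT libraries were most like the day-1 KO libraries (median correlation across genes 0.971). All other pairs of groups had medians between 0.914 and 0.931. The day-14 KO libraries were in turn most like the day-1 WT libraries (0.931), against 0.916 with day-14 WT and 0.914 with day-1 KO. Each day-14 group was thus nearest to the other genotype label of day 1. The direction of the difference was mostly the opposite at day 1, in other libraries. Of 1173 genes called and at least 2-fold higher in KO at day 14 with at least 60 counts at day 1, all day-1 KO libraries were below all day-1 WT libraries in 724 (61.7%) and above in 177 (15.1%). Of 1638 such genes lower in KO at day 14, all day-1 KO libraries were above all day-1 WT libraries in 1177 (71.9%) and below in 152 (9.28%). Over all 15145 genes at day 1 these shares were 40.7% above and 27.2% below. Nr4a3 kept its direction, at 1.96, 2.10 and 2.39 CPM of the library total in KO and 4.41, 4.02 and 3.63 in WT at day 1. The part that the labels play was not tested, and KO and WT below mean the day-14 libraries as labelled.

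The smooth muscle label was checked against its markers. Acta2 (smooth muscle actin) and Des (desmin) were abundant in both groups, while Myh11, Tagln and Myocd were near 0. Myh11, the smooth muscle myosin, had 2 to 4 counts in the KO libraries, against 9 to 12 in those of WT. Tagln had 1 to 8 and 0 to 3 counts, and Myocd, the coactivator that drives the contractile genes, 0 to 2 and 3 to 19. None of these 3 passed the filter on low counts. Of the 5 smooth muscle markers tested, 2 were called higher and 2 lower (1 higher without KO replicate 1 or 3, 1 lower without KO replicate 1). Of 12 listed leukocyte markers 4 were tested, and Ptprc and Tyrobp had 0 to 1 counts in every library. Cd68 was called lower, at 32.2, 28.6 and 31.8 CPM in the KO libraries, against 40.9, 71.8 and 63.4 CPM in the WT libraries. Csf1r was called higher, at 3.13, 2.76 and 2.54 CPM in the KO libraries, against 0.910, 0.992 and 1.36 CPM in the WT libraries.

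Of 14905 genes tested, 6918 (46.4%) were called, 3388 (22.7%) higher and 3530 (23.7%) lower in KO. Among the called genes 1294 were at least 2-fold higher and 1761 at least 2-fold lower, and 123 and 326 differed at least 10-fold. The groups did not overlap in 8667 genes (58.1%). The median log2 fold change was -0.00 and the median absolute one 0.42. Without WT replicate 1, 9209 genes were called, among them 98.5% of the 6918 and none with a changed sign. The common biological coefficient of variation was then 0.0706, against 0.146 with it. Since almost 1 gene in 2 was called, the counts for gene groups below are read against these shares, and groups near them are no result about the group. Fewer cells of a type and less RNA per cell cannot be told apart in such bulk samples.

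**Figure D1:**
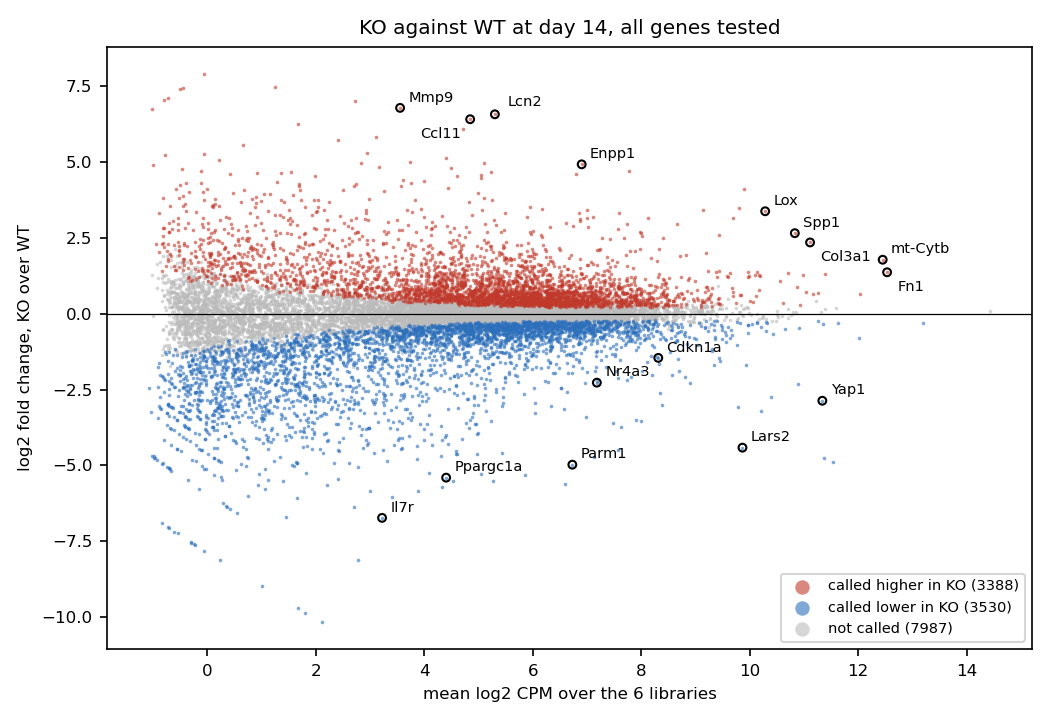
Log2 fold change of KO over WT (vertical axis) against mean log2 CPM (horizontal axis) for the 14905 genes tested, with 3388 called higher, 3530 called lower and 7987 not called. The named genes range from Mmp9 at 6.79 to Il7r at -6.73.

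The 12 largest rises among well expressed genes whose groups did not overlap were led by Mmp9 and Lcn2. Mmp9, a gelatin-degrading metalloproteinase, stood at 28.4, 19.1 and 22.2 CPM in the KO libraries, against 0.202, 0 and 0.352 CPM in the WT libraries (log2 fold change 6.79 ± 0.41 SE, edgeR adjusted p = 5.12e-06). Without WT replicate 3, the log2 fold change of Mmp9 was 7.54. Lcn2, the iron-siderophore binding lipocalin, stood at 126, 51.8 and 56.7 CPM in the KO libraries, against 1.06, 0.354 and 0.904 CPM in the WT libraries (log2 fold change 6.58 ± 0.47 SE, edgeR adjusted p = 1.22e-05). KO replicate 1 was the highest for Lcn2, Hp and Saa3, and even the lowest KO library was far above the WT range. Hp (haptoglobin) stood at 73.6, 35.6 and 46.01 CPM in the KO libraries, against 0.0506, 1.56 and 0.854 CPM in the WT libraries, with a log2 fold change of 6.08, or 5.47 without WT replicate 1 and 6.81 without WT replicate 2. The eosinophil attractant Ccl11 (6.42 ± 0.25, log2 fold change ± SE) and the acute phase protein Saa3 (4.72 ± 0.23) rose as well. So did Casp1, the protease that matures interleukins of the inflammasome, at 66.3, 62.2 and 70.6 CPM in the KO libraries, against 1.62, 1.77 and 2.81 CPM in the WT libraries (log2 fold change 4.99 ± 0.19 SE, edgeR adjusted p = 5.32e-07). Enpp1, Mgp and Nos2 are described with their groups, and Clca2 (5.81 ± 0.32), the potassium channel subunit Kcnmb1 (5.0 ± 0.29) and the glutamate transporter Slc1a3 (4.8 ± 0.22) complete the set.

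The 12 largest falls, by the same rule, were led by Il7r and Cd24a. Il7r, the receptor of a lymphocyte cytokine, stood at 0.123, 0.142 and 0.216 CPM in the KO libraries, against 21.1, 17.4 and 15.7 CPM in the WT libraries (log2 fold change -6.73 ± 0.28 SE, edgeR adjusted p = 8.08e-07). Ppargc1a, the coactivator of mitochondrial biogenesis known as PGC1 alpha, stood at 0.798, 1.06 and 1.03 CPM in the KO libraries, against 39.7, 40.05 and 43.1 CPM in the WT libraries (log2 fold change -5.4 ± 0.16 SE, edgeR adjusted p = 2.56e-07). The WT libraries lay within a narrow range for this gene, and replicate 1 did not stand apart. Parm1 stood at 6.08, 6.44 and 7.04 CPM in the KO libraries, against 121, 255 and 241 CPM in the WT libraries (log2 fold change -4.97 ± 0.29 SE, edgeR adjusted p = 4.50e-06), and here WT replicate 1 was the lowest WT library. The same order held for the monooxygenase Fmo2 (-4.73 ± 0.34) and for Bmp7 (-4.78 ± 0.40). The surface glycoprotein Cd24a (-6.03 ± 0.23), Stmn4 (-5.85 ± 0.24), the gut hormone gene Cck (-5.52 ± 0.20), the G protein regulator Rgs1 (-5.72 ± 0.29), Adgrg7 (-5.28 ± 0.15), Prr9 (-5.23 ± 0.34) and Ggt1 (-4.84 ± 0.29) fell too. Without KO replicate 3 the log2 fold change of Ggt1 was -5.44.

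**Figure D2:**
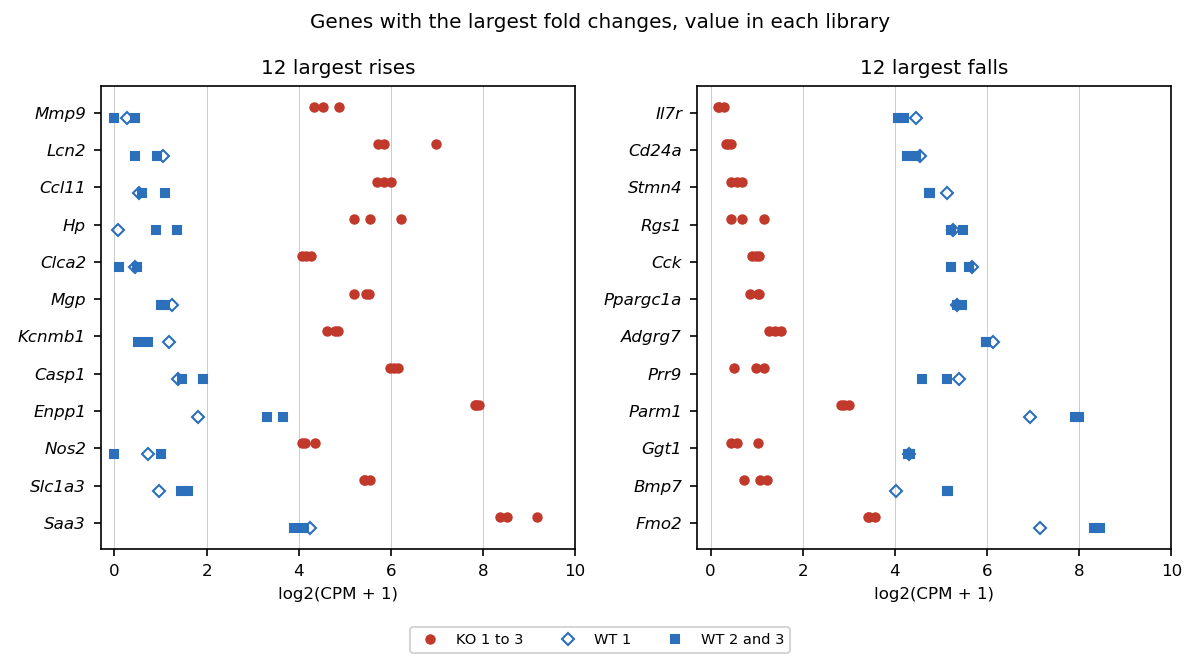
Log2(CPM + 1) in each library for the 12 largest rises (left) and falls (right), with KO libraries as circles, WT replicate 1 as an open diamond and WT replicates 2 and 3 as squares. The groups are apart in all 24 genes, and WT replicate 1 is the WT library nearest to KO in 8 of them, the farthest in 11 and between the others in 5.

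By the difference in mean CPM, mt-Cytb and Fn1 rose most. Fn1 (fibronectin) stood at 7650.0, 9234 and 8783 CPM in the KO libraries, against 2311, 3846 and 3776 CPM in the WT libraries (log2 fold change 1.37 ± 0.19 SE, edgeR adjusted p = 4.03e-04), and mt-Cytb, the cytochrome b of complex III, at 9103, 8504 and 8466 CPM in the KO libraries, against 3436, 2061 and 2075 CPM in the WT libraries (log2 fold change 1.78 ± 0.19 SE, edgeR adjusted p = 1.08e-04). In Fn1 WT replicate 1 was the lowest WT library and in mt-Cytb the highest. Col3a1, Spp1, Lox and mt-Nd1 were the other 4. The 6 largest falls in CPM, with predicted and clone-named genes passed over, were Yap1, Birc2, Dcun1d5, Tmem123 and Dync2h1, neighbours on chromosome 9 by RefSeq's gene order, and Lars2. Of the genes passed over, Gm23935 (192 ± 30.9 CPM across KO, against 5743 ± 2082 CPM across WT) and CT010467.1 differed by more CPM than Yap1. From Pdgfd to Gm46102, a stretch bounded at lower genes by its definition, 17 of 20 tested neighbours were called lower in KO and 1, Mmp13, higher (median log2 fold change -2.92). Of the 9 tested genes before it 4 were called higher, among them Casp1, and of the 10 after it 6 were, and none in either flank was called lower. Yap1, the coactivator of the Hippo pathway, stood at 597, 619.7 and 660.2 CPM in the KO libraries, against 4180.4, 4789 and 4712 CPM in the WT libraries (log2 fold change -2.87 ± 0.10 SE, edgeR adjusted p = 3.78e-07). At day 1 it stood at 3959, 4229 and 3626 CPM of the library total in KO and 939, 934 and 871 in WT.

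Lars2, a mitochondrial leucyl-tRNA synthetase, stood at 92.1, 76.6 and 82.7 CPM in the KO libraries, against 2599, 1866 and 889 CPM in the WT libraries (log2 fold change -4.41 ± 0.36 SE, edgeR adjusted p = 2.24e-05). The KO libraries lay close together and the WT libraries far from each other. Lines of ribosomal and other structural RNA were also lower in KO. CT010467.1, annotated in GENCODE M21 as rRNA, stood at 192, 175 and 198 CPM in the KO libraries, against 7530.1, 5147 and 2741 CPM in the WT libraries. The mitochondrial rRNA mt-Rnr2 stood at 422, 372 and 374 CPM in the KO libraries, against 1255, 799.6 and 549 CPM in the WT libraries, which is the opposite direction to the mitochondrial messengers. Lars2, CT010467.1, Gm26917, Gm15564, Mir6236, Rn7sk, mt-Rnr1 and mt-Rnr2 together took 0.0897% to 0.0983% of the counts in KO and 0.514% to 1.31% in WT. WT replicate 1 was the highest library in 6 of these 8 lines, all but Gm26917 and Mir6236. Gm23935, given above, is not among the 8 and not in these shares. At day 1 Lars2 stood at 374, 367 and 164 CPM of the library total in KO and 135, 80.1 and 90.5 in WT. CT010467.1 then stood at 1519, 1444 and 602 in KO and 261, 148 and 189 in WT. The 8 lines were chosen after their values were seen, and whether reads of rRNA are counted in Lars2 was not tested.

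Genes of inflammatory signalling were mostly higher in KO. The chemokines had 9 of 14 tested genes called higher and 3 lower, 64.3% and 21.4%, against 22.7% and 23.7% of all genes tested. The summed level of the list was 5479.6 to 7588 CPM in the KO libraries and 799 to 862 CPM in the WT libraries. Cxcl5, which attracts neutrophils, stood at 2038, 1611 and 1762 CPM in the KO libraries, against 88.4, 113 and 108 CPM in the WT libraries (log2 fold change 4.13 ± 0.14 SE, edgeR adjusted p = 3.78e-07). Cxcl1 averaged 1641 ± 431 CPM across KO, against 145 ± 25.96 CPM across WT, and Ccl2, the main monocyte attractant, 1492 ± 251 CPM across KO, against 169 ± 23.4 CPM across WT (SD, n = 3 each). The groups were far apart in these genes, also without WT replicate 1. The 3 chemokines called lower were Cxcl10, Cxcl11 and Cxcl15, the first 2 of them known as interferon-induced ligands of Cxcr3. Cxcl10 stood at 12.9, 13.03 and 15.4 CPM in the KO libraries, against 46.6, 28.8 and 26.5 CPM in the WT libraries (log2 fold change -1.3 ± 0.22 SE, edgeR adjusted p = 0.00124), with WT replicate 1 the highest of all.

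Acute phase proteins had 7 of 11 tested genes called higher and 2 lower (1 lower without KO replicate 1 or 3 or WT replicate 3), and complement genes 8 of 16 tested genes called higher and 1 lower (lower: 3 without WT replicate 1, 2 without WT replicate 3, 0 without KO replicate 1 or 3). C3, the central complement component, stood at 464, 316 and 347 CPM in the KO libraries, against 30.03, 61.6 and 54.96 CPM in the WT libraries (log2 fold change 2.95 ± 0.26 SE, edgeR adjusted p = 3.85e-05). The proteases of the first complement complex C1ra and C1s1 averaged 197 ± 19.6 CPM across KO, against 83.6 ± 19.6 CPM across WT, and 340.5 ± 24.4 CPM across KO, against 121 ± 42.5 CPM across WT. The copper carrier Cp (ceruloplasmin) averaged 334 ± 42.3 CPM across KO, against 48.1 ± 10.7 CPM across WT. WT replicate 1 was the lowest library for summed complement, at 370.0 CPM, against 619 and 622 CPM in the other WT libraries and 1123 to 1391 CPM in KO.

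Among interleukins and colony stimulating factors, 10 of 14 tested genes were called higher and 1 lower (2 lower without WT replicate 1). Il6 stood at 299, 141 and 192 CPM in the KO libraries, against 17.7, 24.5 and 20.9 CPM in the WT libraries (log2 fold change 3.33 ± 0.27 SE, edgeR adjusted p = 2.23e-05). Il1rn, which encodes the antagonist of the interleukin-1 receptor, stood at 365, 326 and 367 CPM in the KO libraries, against 37.4, 35.4 and 32.1 CPM in the WT libraries (log2 fold change 3.33 ± 0.10 SE, edgeR adjusted p = 2.56e-07). The agonist Il1a also rose (1.77 ± 0.51), as did the alarmin Il33 (2.08 ± 0.33) and the macrophage growth factor Csf1 (1.34 ± 0.09). Il15, a lymphocyte cytokine, was the one that fell, at 0.983, 1.49 and 1.52 CPM in the KO libraries, against 5.46, 9.5 and 9.39 CPM in the WT libraries. Of 22 tested cytokine receptors 13 were called higher and 3 lower (5 lower without WT replicate 1). The interferon receptor chain Ifnar2 (1.79 ± 0.13), the shared receptor chain Il13ra1 (2.09 ± 0.16) and Il1rap (1.6 ± 0.15) were among those called higher.

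NF-kB genes had 12 of 17 tested genes called higher and 3 lower (5 lower without WT replicate 1). Subunits and inhibitors were both among the genes that rose. Nfkb1 averaged 205 ± 4.29 CPM across KO, against 81.1 ± 12.2 CPM across WT, and Nfkbia, the inhibitor that holds NF-kB in the cytoplasm, 142 ± 35.03 CPM across KO, against 58.4 ± 17.4 CPM across WT. Nfkbiz, a nuclear partner of NF-kB, stood at 291, 251 and 281 CPM in the KO libraries, against 63.1, 94.8 and 81.1 CPM in the WT libraries (log2 fold change 1.79 ± 0.15 SE, edgeR adjusted p = 2.35e-05), and Bcl3 at 9.27, 12.3 and 14.02 CPM in the KO libraries, against 1.16, 0.709 and 2.01 CPM in the WT libraries. Rela (-0.17 ± 0.13) and the deubiquitinase Tnfaip3 (-0.37 ± 0.18) were not called. Birc3 fell, and it lies in the chromosome 9 stretch around Yap1. Whether its position bears on the fall was not tested.

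Genes of prostaglandins and nitric oxide had 5 of 16 tested genes called higher and 3 lower (6 lower without WT replicate 1), which is near the background shares. Ptgs2, the inducible cyclooxygenase, averaged 1629 ± 487 CPM across KO, against 632 ± 12.6 CPM across WT (log2 fold change 1.37 ± 0.18 SE, edgeR adjusted p = 3.85e-04). Nos2, the inducible nitric oxide synthase, stood at 19.4, 15.7 and 16.6 CPM in the KO libraries, against 0.657, 0 and 1.0 CPM in the WT libraries, with a log2 fold change of 4.83, or 5.49 without WT replicate 3. The prostacyclin receptor Ptgir rose as well (2.71 ± 0.24). Hpgd, which breaks prostaglandins down, had 0 counts in the KO libraries and 23, 31 and 17 in the WT libraries, at least 21.5-fold lower in KO against 3 counts over the group.

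Genes of the interferon response were called in both directions, more of them higher, while antigen presentation went one way. Of 30 tested interferon-stimulated genes 12 were called higher and 5 lower, 40% and 16.7%, against 22.7% and 23.7% of all genes tested. Without WT replicate 1 these counts were 18 and 6, in a fit that also called more genes in total (9209, against 6918). Without any other library they were 10 to 15 and 5. The guanylate-binding protein genes Gbp2, at 175, 229.5 and 231 CPM in the KO libraries, against 26.3, 24.2 and 21.6 CPM in the WT libraries (log2 fold change 3.14 ± 0.14 SE, edgeR adjusted p = 1.0e-06), and Gbp5 (2.7 ± 0.15) led the rises, with Mx1 (2.2 ± 0.22) and Irf1 (0.86 ± 0.10). The 5 lower genes were Oasl1, at 1.78, 1.84 and 2.22 CPM in the KO libraries, against 21.7, 10.8 and 11.1 CPM in the WT libraries, Rsad2 (-1.2 ± 0.15), Oas3 (-1.18 ± 0.17), Usp18 (-1.16 ± 0.20) and Bst2 (-0.62 ± 0.12). WT replicate 1 was the highest library for Oasl1, Rsad2 and Oas3, and was above both other WT libraries in 23 of the 30 genes. Ifit1, Ifit2, Isg15 and Oas1a were not called, with log2 fold changes of 0.41, -0.04, 0.26 and -0.06.

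MHC class I presentation had 12 of 12 tested genes called higher and 0 lower, with a median log2 fold change of 1.20. The immunoproteasome subunits, which replace the constitutive ones under interferon and cut peptides for presentation, rose most. Psmb9 stood at 19.04, 20.96 and 20.9 CPM in the KO libraries, against 6.52, 4.32 and 3.22 CPM in the WT libraries (log2 fold change 2.11 ± 0.24 SE, edgeR adjusted p = 1.46e-04), Psmb10 at 37.1, 40.9 and 43.3 CPM in the KO libraries, against 11.1, 11.98 and 7.99 CPM in the WT libraries, and Psmb8 at 17.1, 19.5 and 19.8 CPM in the KO libraries, against 7.28, 3.05 and 5.12 CPM in the WT libraries. B2m, the light chain of the complex, stood at 2761, 2448 and 2653 CPM in the KO libraries, against 1869, 1393 and 1477 CPM in the WT libraries (log2 fold change 0.73 ± 0.12 SE, edgeR adjusted p = 0.00121), the peptide loader Tapbp averaged 256 ± 27.3 CPM across KO, against 88.1 ± 9.18 CPM across WT, and the heavy chain H2-K1 207 ± 15.2 CPM across KO, against 132 ± 32.5 CPM across WT. The smallest rise was that of H2-K1 (0.64 ± 0.16). The class I heavy chain genes are near-identical copies, so their reads cannot be assigned with certainty.

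**Figure D3:**
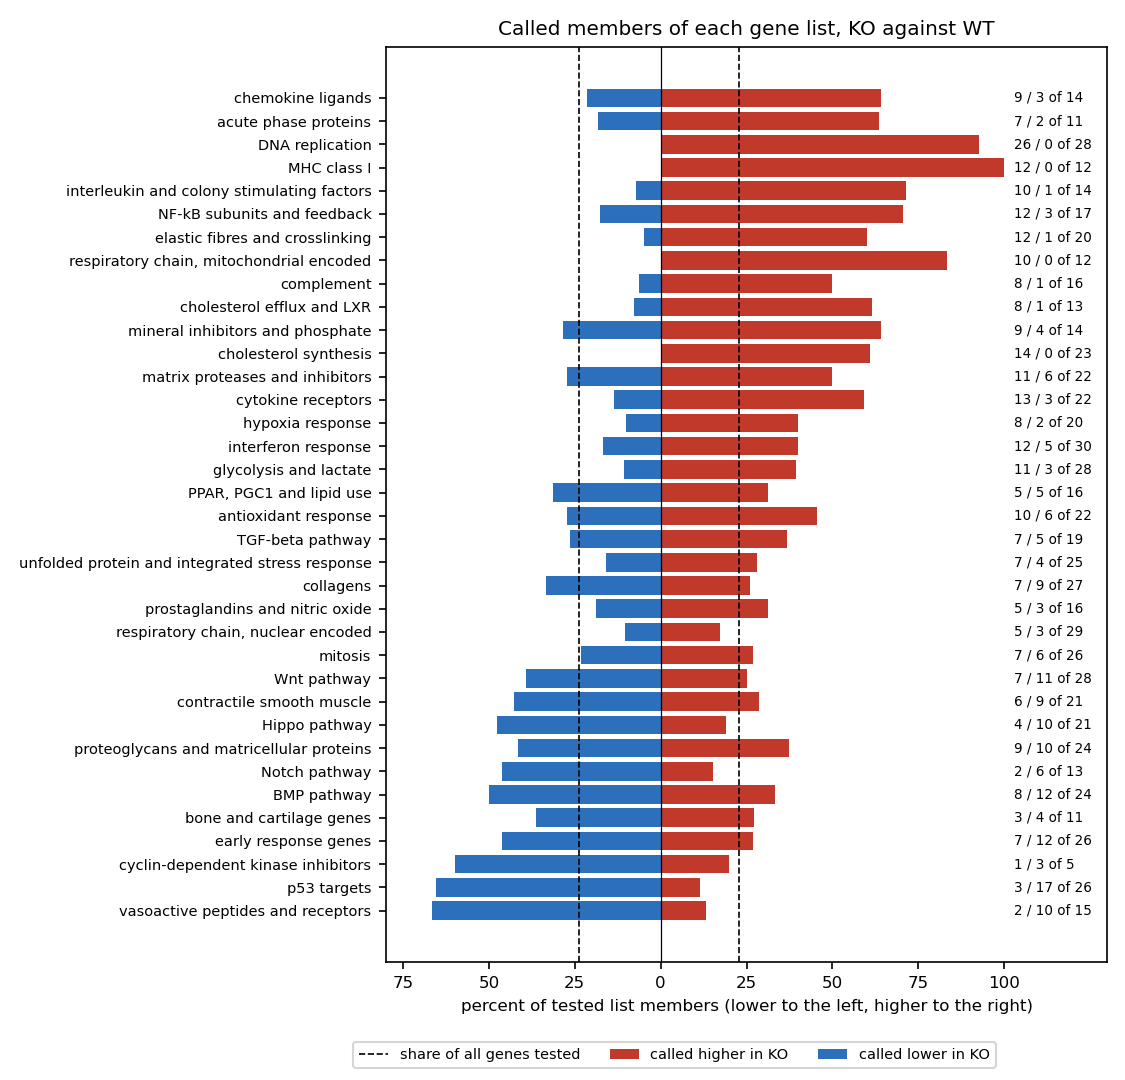
Percent of the tested members of each gene list called higher (right, red) or lower (left, blue) in KO, ordered by the list's median log2 fold change, with counts at the right and dashed lines at 22.7% and 23.7% of all genes tested. MHC class I (12 of 12 higher) and DNA replication (26 of 28 higher) are the most one-sided.

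MHC class I and DNA replication were the most one-sided lists, so the 250 bases before the start of their called members were searched in RefSeq's promoters (GRCm38.p6), where 10 of 12 and 21 of 26 have an entry. On both strands, the NR4A monomer site AAAGGTCA and the AP-1 site TGANTCA matched none of the 10 and none of the 21 (1.34% and 6.75% of all 32851 promoters of the same length). The NF-kB consensus matched 4 of the 10 and 1 of the 21 (3.90% of all). Among the 4 are the related heavy chain genes H2-K1, H2-D1 and H2-Q4, whose matches are not independent. The E2F site TTTNGCGC, added after the values were seen, matched 2 of the 10 and 4 of the 21 (1.13% of all). The 2 are Psmb9 and Tap1, whose matches are the same bases read on opposite strands. They are 1 site counted for both genes. Psmb8, Psmb10, Tk1 and Cdc6 had no match to any of the 4 motifs, and Psmb9 had 1. Windows of 30 bases around a match show where these letters stand, with the match in capitals and in the direction of the gene, 5′ to 3′. A match is a description of the letters, and its use by a factor was not tested.
H2-K1, chr17:34000439-34000468, minus strand, NF-kB: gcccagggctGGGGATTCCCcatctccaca
H2-D1, chr17:35262913-35262942, plus strand, NF-kB: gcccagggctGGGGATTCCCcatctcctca
H2-Q4, chr17:35379433-35379462, plus strand, NF-kB: gatcaggggtGGGGATTTCCcatctcccca
B2m, chr2:122147551-122147580, plus strand, NF-kB: actgaaaatgGGAAAGTCCCtttgtaacct
Psmb9, chr17:34187410-34187439, minus strand, E2F: gtttgctctggGCGCCAAAtgctggtagaa
Mcm6, chr1:128359797-128359826, minus strand, E2F: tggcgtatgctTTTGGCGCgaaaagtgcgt
Pola1, chrX:93632275-93632304, minus strand, E2F: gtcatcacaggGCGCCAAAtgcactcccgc
The heavy chain genes H2-K1 and H2-D1 carry the same 10 letters, in windows 111 and 171 bases before their starts. The window of Psmb9 also lies before Tap1, which starts in the other direction.

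DNA replication genes were higher in KO almost throughout. Of 28 tested genes 26 were called higher and 0 lower (edgeR), with a median log2 fold change of 1.44, and the other 2 were Fen1 (0.42 ± 0.83) and Gins1 (0.70 ± 0.26). No gene of the lists of DNA replication, MHC class I, cholesterol synthesis or mitochondrially encoded subunits was called lower by edgeR, DESeq2 or limma-voom, nor was any lower at an unadjusted p below 0.05 in edgeR. The summed level of the DNA replication genes was 2917 to 3236 CPM in KO, and 1694 CPM in WT replicate 1 against 1040.0 and 1070 CPM in the other WT libraries. WT replicate 1 was thus above both other WT libraries, in 27 of the 28 genes, and below KO. Tk1, thymidine kinase, stood at 97.9, 105 and 99.5 CPM in the KO libraries, against 29.2, 14.8 and 15.1 CPM in the WT libraries (log2 fold change 2.35 ± 0.24 SE, edgeR adjusted p = 8.49e-05). Ccne2, the cyclin that opens S phase, stood at 44.6, 41.4 and 36.6 CPM in the KO libraries, against 11.6, 6.45 and 4.42 CPM in the WT libraries (log2 fold change 2.44 ± 0.29 SE, edgeR adjusted p = 2.11e-04), and Cdc6, which loads the replicative helicase, at 41.1, 48.7 and 41.2 CPM in the KO libraries, against 14.9, 5.88 and 5.98 CPM in the WT libraries (log2 fold change 2.27 ± 0.32 SE, edgeR adjusted p = 5.26e-04). The helicase subunits Mcm5 (1.73 ± 0.24) and Mcm6 (1.57 ± 0.09) and the sliding clamp Pcna (1.56 ± 0.18) moved with them.

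Genes of mitosis did not share this. Of 26 tested genes 7 were called higher and 6 lower, near the background shares. Without WT replicate 1, 13 were called higher, and between 3 and 5 without any other library. The summed level was 2884 to 3200 CPM in KO, 3339 CPM in WT replicate 1 and 2200 and 2233 CPM in the other WT libraries. Top2a, which untangles chromosomes, stood at 662, 693 and 639 CPM in the KO libraries, against 512, 322 and 321 CPM in the WT libraries (log2 fold change 0.79 ± 0.17 SE, edgeR adjusted p = 0.00527). Ube2c, an enzyme that works with the anaphase-promoting complex, fell, at 49.9, 59.2 and 55.3 CPM in the KO libraries, against 106, 98.03 and 113 CPM in the WT libraries (log2 fold change -0.95 ± 0.10 SE, edgeR adjusted p = 1.0e-04), and so did the centromere histone Cenpa (-0.67 ± 0.09).

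Targets of p53 were mostly lower in KO, with 3 of 26 tested genes called higher and 17 lower. Without WT replicate 1, 5 were called higher. Cdkn1a, the p21 inhibitor of cyclin-dependent kinases, stood at 179, 169.7 and 162 CPM in the KO libraries, against 425, 500.0 and 474 CPM in the WT libraries (log2 fold change -1.45 ± 0.09 SE, edgeR adjusted p = 6.60e-06). Mdm2, which marks p53 for degradation and is its target, averaged 169.7 ± 4.71 CPM across KO, against 455 ± 30.3 CPM across WT, and the antiproliferative Btg2 18.3 ± 0.631 CPM across KO, against 87.9 ± 15.6 CPM across WT. Eda2r (-1.92 ± 0.10), Phlda3 (-1.75 ± 0.13) and the pro-death genes Pmaip1 (-1.88 ± 0.20) and Bbc3 (-1.65 ± 0.21) fell as well. WT replicate 1 was on the side of the other WT libraries in all of these. The death receptor gene Fas went the other way, at 81.7, 72.7 and 65.7 CPM in the KO libraries, against 9.15, 13.3 and 11.9 CPM in the WT libraries (log2 fold change 2.68 ± 0.16 SE, edgeR adjusted p = 4.13e-06), and Trp53 itself rose slightly (0.46 ± 0.11). Of 5 tested genes of cyclin-dependent kinase inhibitors, Cdkn1a and Cdkn1b (-0.57 ± 0.14) fell and Cdkn2c rose (0.93 ± 0.09). Cdkn3 was called lower as well, but lost its call in 7 of the other settings.

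**Figure D4:**
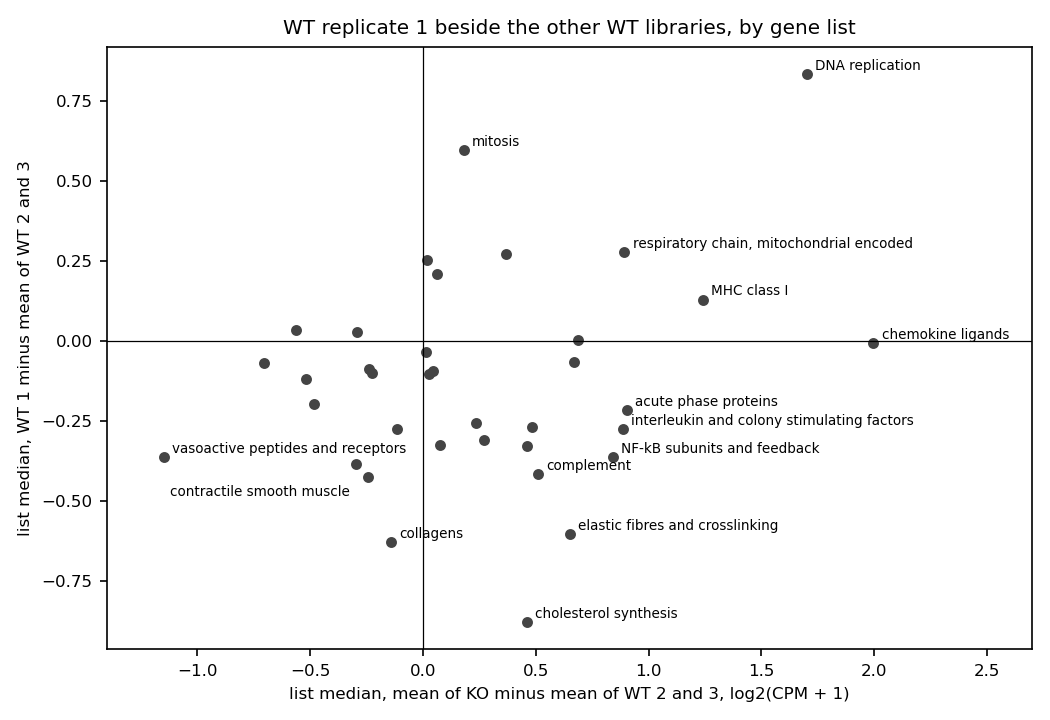
Each point is a gene list: median over its tested genes of the KO mean minus the mean of WT replicates 2 and 3 (horizontal) and of WT replicate 1 minus that mean (vertical), both in log2(CPM + 1). DNA replication is raised in KO (1.70) and in WT replicate 1 (0.83), mitosis mainly in WT replicate 1 (0.60 against 0.18 in KO), and cholesterol synthesis is raised in KO (0.46) and lowered in WT replicate 1 (-0.88).

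Matrix genes changed in both directions. Collagens had 7 of 27 tested genes called higher and 9 lower. These are 25.9% and 33.3%, near the 22.7% and 23.7% of all genes tested, so the counts are no result about collagens as a group. The 7 that rose were the fibril collagen Col3a1, at 4115, 3375 and 3633 CPM in the KO libraries, against 500.0, 859.6 and 817 CPM in the WT libraries (log2 fold change 2.35 ± 0.20 SE, edgeR adjusted p = 2.72e-05), Col5a3 (2.69 ± 0.17), Col8a1 (2.13 ± 0.11), Col14a1 (2.02 ± 0.39) and the 3 chains of the beaded filament collagen, Col6a1 (2.96 ± 0.32), Col6a2 (3.14 ± 0.29) and Col6a3 (2.59 ± 0.09). Col6a1 stood at 709, 723 and 726 CPM in the KO libraries, against 44.2, 107 and 127 CPM in the WT libraries, with WT replicate 1 the lowest. Among those that fell were Col11a1, of cartilage fibrils (-4.41 ± 0.39), the basement membrane chain Col4a5 (-3.63 ± 0.18), the anchoring fibril collagen Col7a1 (-2.31 ± 0.16) and Col1a1, at 33.3, 46.5 and 39.7 CPM in the KO libraries, against 76.1, 148 and 137 CPM in the WT libraries (log2 fold change -1.59 ± 0.24 SE, edgeR adjusted p = 6.72e-04). Col1a2, its partner chain, was not called (0.16 ± 0.22). The summed collagen level was 10755 to 11360 CPM in KO and 3674 CPM in WT replicate 1, against 5987 and 6535 CPM in the other WT libraries.

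Elastic fibre and crosslinking genes had 12 of 20 tested genes called higher and 1 lower (2 lower without WT replicate 1, 0 without KO replicate 1). Lox, the lysyl oxidase that crosslinks collagen and elastin, stood at 2274, 2336 and 2228 CPM in the KO libraries, against 115, 257 and 284 CPM in the WT libraries (log2 fold change 3.38 ± 0.30 SE, edgeR adjusted p = 3.57e-05). Fbn1, the main microfibril protein, averaged 666 ± 45.8 CPM across KO, against 177 ± 27.6 CPM across WT, and Emilin1 121 ± 9.97 CPM across KO, against 20.3 ± 6.72 CPM across WT. In this list too WT replicate 1 was the lowest of the WT libraries, in 18 of the 20 genes. Eln, which encodes elastin, did not pass the filter on low counts.

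Proteoglycans and matricellular proteins were split, with 9 of 24 tested genes called higher and 10 lower, 37.5% and 41.7%. Among all genes tested the shares were 22.7% and 23.7%. Spp1 (osteopontin) stood at 3377, 3083 and 2988 CPM in the KO libraries, against 450.4, 521 and 524 CPM in the WT libraries (log2 fold change 2.66 ± 0.10 SE, edgeR adjusted p = 4.95e-07), and the thrombospondins Thbs1 (1.25 ± 0.23) and Thbs2 (1.42 ± 0.15) and the large proteoglycan Vcan (1.23 ± 0.10) also rose. The small proteoglycans Dcn (-1.47 ± 0.20), Ogn (-1.63 ± 0.38) and Prelp (-3.26 ± 0.64) fell, as did Cyr61, at 127, 114 and 113 CPM in the KO libraries, against 295, 566 and 559 CPM in the WT libraries (log2 fold change -2.01 ± 0.22 SE, edgeR adjusted p = 1.39e-04). Matrix proteases and inhibitors had 11 of 22 tested genes called higher and 6 lower, 50% and 27.3%. Besides Mmp9, the collagenase Mmp13 (1.43 ± 0.24), Adam12 (2.55 ± 0.16), the aggrecanase Adamts4 (2.14 ± 0.20) and the inhibitor Timp1 (1.94 ± 0.11) rose. Timp3, an inhibitor bound to the matrix, fell, at 61.2, 49.3 and 42.8 CPM in the KO libraries, against 211, 254 and 249 CPM in the WT libraries (log2 fold change -2.22 ± 0.14 SE, edgeR adjusted p = 6.80e-06), and so did the aggrecanase Adamts5 (-2.02 ± 0.29). Mmp10 fell more, at 43.8, 34.4 and 44.1 CPM in the KO libraries, against 581, 367 and 470 CPM in the WT libraries (-3.53 ± 0.18). It lies in the chromosome 9 stretch around Yap1, as does Mmp13, which rose. Whether its position bears on the fall was not tested.

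Contractile genes went both ways. Of 21 tested, 6 were called higher and 9 lower, 28.6% and 42.9%, against 22.7% and 23.7% of all genes tested. Acta2 stood at 1609, 1838 and 1462 CPM in the KO libraries, against 544, 733 and 738 CPM in the WT libraries (log2 fold change 1.29 ± 0.14 SE, edgeR adjusted p = 1.14e-04), and all KO libraries were above all WT libraries. The actin crosslinker Flna (0.70 ± 0.10) and caldesmon, Cald1 (0.35 ± 0.09), rose with it. The light chain Myl9 fell, at 17.4, 17.1 and 12.99 CPM in the KO libraries, against 27.5, 53.2 and 45.8 CPM in the WT libraries (log2 fold change -1.41 ± 0.24 SE, edgeR adjusted p = 0.00128). The tropomyosin Tpm1 also fell and averaged 577 ± 33.1 CPM across KO, against 933 ± 79.2 CPM across WT (SD, n = 3 each), and Synpo2 (-1.83 ± 0.29) and the serum response factor Srf (-0.42 ± 0.10) fell. WT replicate 1 was below both other WT libraries in 16 of the 21 genes.

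The list of mineral inhibitors and phosphate handling, which holds both kinds of gene, had 9 of 14 tested genes called higher and 4 lower, with 2 lower without KO replicate 2. Enpp1, which makes the mineral inhibitor pyrophosphate, stood at 241, 229.9 and 224 CPM in the KO libraries, against 2.53, 8.86 and 11.6 CPM in the WT libraries (log2 fold change 4.93 ± 0.41 SE, edgeR adjusted p = 2.65e-05). Mgp, the matrix Gla protein that inhibits calcification, stood at 35.7, 45.04 and 42.97 CPM in the KO libraries, against 1.36, 1.13 and 1.0 CPM in the WT libraries (log2 fold change 5.13 ± 0.18 SE, edgeR adjusted p = 3.91e-07). At day 1 Mgp stood at 3.75, 5.83 and 3.43 CPM of the library total in KO and 25.4, 20.9 and 22.8 in WT. The pyrophosphate exporter Ank (0.89 ± 0.10) and the hormone Stc1, at 88.7, 45.96 and 83.1 CPM in the KO libraries, against 1.16, 3.05 and 4.27 CPM in the WT libraries, rose too. Tnfrsf11b (osteoprotegerin) fell (-2.24 ± 0.35), as did Nt5e, which makes adenosine outside cells (-1.7 ± 0.36), and the phosphate carrier Slc20a1 fell slightly (-0.31 ± 0.10).

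Of 11 tested genes of bone and cartilage, 3 were called higher and 4 lower, 27.3% and 36.4%, against 22.7% and 23.7% of all genes tested. Without WT replicate 1, 6 were called lower, in a fit that also called more genes in total (9209, against 6918). Without any other library 4 were called lower. The list is short, so these counts are no result about bone and cartilage genes as a group. Alpl, the alkaline phosphatase that degrades pyrophosphate and is a classic sign of mineralizing cells, stood at 1.23, 1.13 and 0.866 CPM in the KO libraries, against 8.29, 15.9 and 19.2 CPM in the WT libraries (log2 fold change -3.75 ± 0.36 SE, edgeR adjusted p = 5.77e-05). All KO libraries were below all WT libraries for this gene. Msx2 (-4.73 ± 0.52) and the cartilage regulator Sox9 (-1.15 ± 0.21) fell, while Sox5 (4.54 ± 0.29) rose. Runx2, the master regulator of bone formation, averaged 89.3 ± 2.2 CPM across KO, against 119 ± 31.2 CPM across WT and was not called (log2 fold change -0.41 ± 0.17 SE, edgeR adjusted p = 0.0805). Sp7 and Bglap did not pass the filter.

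Metabolic genes rose in several groups. Glycolysis had 11 of 28 tested genes called higher and 3 lower (6 lower without WT replicate 1), and the hypoxia response 8 of 20 tested genes called higher and 2 lower (4 lower without it). The glucose carrier Slc2a1 stood at 266, 223 and 235 CPM in the KO libraries, against 84.8, 81.8 and 98.3 CPM in the WT libraries (log2 fold change 1.45 ± 0.11 SE, edgeR adjusted p = 1.41e-05), lactate dehydrogenase, Ldha, averaged 1407 ± 121 CPM across KO, against 604 ± 80.4 CPM across WT, and the kinase Pdk1, which keeps pyruvate out of mitochondria, 156 ± 22.3 CPM across KO, against 58.8 ± 20.1 CPM across WT. Pdk4, of the same family, fell (-1.33 ± 0.22). The oxygen sensor Egln3 (1.4 ± 0.13) and Bnip3 (1.26 ± 0.19) rose, Vegfa (0.08 ± 0.14) and Hif1a (0.34 ± 0.14) were not called, and Ndrg1 fell (-0.94 ± 0.17).

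Mitochondrially encoded subunits of the respiratory chain had 10 of 12 tested genes called higher and 0 lower, and nuclear-encoded ones 5 of 29 higher and 3 lower, under the background shares. mt-Nd4 stood at 2395, 2321 and 2471 CPM in the KO libraries, against 1100.4, 872 and 847 CPM in the WT libraries (log2 fold change 1.35 ± 0.11 SE, edgeR adjusted p = 2.82e-05), while mt-Co1, at 24890.4, 21141 and 22696 CPM in the KO libraries, against 18986, 21351 and 23498 CPM in the WT libraries, was not called (log2 fold change 0.11 ± 0.11 SE, edgeR adjusted p = 0.455). Of the nuclear genes, cytochrome c, Cycs, rose most (1.4 ± 0.15). Without 1 library the nuclear counts were 3 to 7 higher and 1 to 6 lower, the top of both without WT replicate 1.

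Cholesterol synthesis had 14 of 23 tested genes called higher and 0 lower, but these counts rest on how the libraries are combined: 6 were called higher without KO replicate 1 and 17 without WT replicate 1 or 3. The summed level was 2125 to 2525 CPM in KO and 1532 and 1860 CPM in WT replicates 2 and 3, against 1022 CPM in WT replicate 1, which was below both in 22 of 23 genes. Cholesterol efflux and LXR genes had 8 of 13 tested genes called higher and 1 lower (2 lower without WT replicate 1). Apoe, the apolipoprotein that carries cholesterol out of cells, rose (1.77 ± 0.25), and so did the desaturase Scd2, at 1741, 1606 and 1614 CPM in the KO libraries, against 467, 712 and 891 CPM in the WT libraries (log2 fold change 1.26 ± 0.20 SE, edgeR adjusted p = 9.38e-04).

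Genes of PPAR and lipid use had 5 of 16 tested genes called higher and 5 lower. At 31.25% each, the list is not far from the 22.7% and 23.7% of all genes tested, so its counts are no result. Pparg, the adipogenic receptor, stood at 6.45, 8.0 and 7.14 CPM in the KO libraries, against 25.9, 29.7 and 28.5 CPM in the WT libraries (log2 fold change -1.96 ± 0.14 SE, edgeR adjusted p = 1.12e-05), and the fatty acid binding proteins Fabp4 (-1.07 ± 0.23) and Fabp5 (-1.94 ± 0.19) fell with it and with Ppargc1a. The lipase Lpl rose, at 1156, 974 and 1121 CPM in the KO libraries, against 322, 516 and 552 CPM in the WT libraries (log2 fold change 1.23 ± 0.19 SE, edgeR adjusted p = 7.31e-04), as did its inhibitor Angptl4 (1.33 ± 0.15). Antioxidant genes had 10 of 22 tested genes called higher and 6 lower, 45.5% and 27.3%. The superoxide dismutases of the mitochondrion and of the matrix, Sod2 and Sod3, averaged 381 ± 23.9 CPM across KO, against 89.8 ± 4.45 CPM across WT, and 113 ± 9.07 CPM across KO, against 9.83 ± 1.31 CPM across WT, while Sod1 of the cytosol was not called (0.13 ± 0.08). Nqo1 rose (1.59 ± 0.10) and Gclc (-0.91 ± 0.17) and Txnrd1 (-0.81 ± 0.08), also known as NRF2 targets, fell.

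The BMP pathway, which signals through SMAD proteins to the ID genes, had 8 of 24 tested genes called higher and 12 lower, 33.3% and 50%. Among all genes tested the shares were 22.7% and 23.7%. Among its ligands Bmp7 stood at 1.11, 1.35 and 0.649 CPM in the KO libraries, against 15.4, 33.95 and 34.7 CPM in the WT libraries (log2 fold change -4.78 ± 0.40 SE, edgeR adjusted p = 2.72e-05), and Bmp4 averaged 6.66 ± 0.987 CPM across KO, against 53.1 ± 3.44 CPM across WT. Among the antagonists Nog (-4.59 ± 0.32) and Chrd (-2.42 ± 0.45) fell, and Grem1 rose, at 1178, 897 and 1032 CPM in the KO libraries, against 98.1, 93.6 and 96.8 CPM in the WT libraries (log2 fold change 3.43 ± 0.12 SE, edgeR adjusted p = 3.78e-07). The targets Id1 (-0.71 ± 0.15), Id2 (-2.78 ± 0.14), Id3 (-1.46 ± 0.14) and Smad6 (-1.44 ± 0.24) were all lower, and the receptors Bmpr1a (0.56 ± 0.09), Bmpr2 (0.40 ± 0.08) and Acvr1 (0.53 ± 0.09) slightly higher. Id4 averaged 0.0889 ± 0.11 CPM across KO, against 3.99 ± 1.03 CPM across WT, with a log2 fold change of -5.47, or -6.81 without KO replicate 2.

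The TGF-beta pathway had 7 of 19 tested genes called higher and 5 lower, 36.8% and 26.3%, against 22.7% and 23.7% of all genes. The ligands parted, with Tgfb1 at 83.1, 96.7 and 105 CPM in the KO libraries, against 40.1, 48.9 and 61.6 CPM in the WT libraries (log2 fold change 0.92 ± 0.16 SE, edgeR adjusted p = 0.00156) and Tgfb2 at 19.04, 15.4 and 16.4 CPM in the KO libraries, against 39.9, 85.9 and 92.4 CPM in the WT libraries (log2 fold change -2.1 ± 0.28 SE, edgeR adjusted p = 4.06e-04). Itgb8, an integrin that frees latent TGF-beta, rose (2.24 ± 0.22). Wnt genes had 7 of 28 tested genes called higher and 11 lower, 25% and 39.3% (4 higher without KO replicate 3). Wnt4, at 1.47, 1.77 and 2.38 CPM in the KO libraries, against 26.6, 56.1 and 57.1 CPM in the WT libraries (log2 fold change -4.62 ± 0.35 SE, edgeR adjusted p = 1.51e-05), Wnt5a (-4.52 ± 0.33) and Wnt10b (-2.76 ± 0.27) fell, and Wnt10a (3.33 ± 0.22) and the receptor Fzd1 (1.96 ± 0.13) rose.

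Notch genes had 2 of 13 higher and 6 lower (1 higher without KO replicate 1 or 3 or WT replicate 2 or 3). Their shares were 15.4% and 46.2%, against 22.7% and 23.7% of all genes tested. The ligand Jag2 averaged 20.7 ± 1.14 CPM across KO, against 47.7 ± 3.87 CPM across WT (log2 fold change -1.2 ± 0.11 SE, edgeR adjusted p = 4.13e-05), and the target Hey1 fell (-2.65 ± 0.38). The Hippo list had 4 of 21 tested genes called higher and 10 lower, 19.0% and 47.6% (2 higher without KO replicate 3). Besides Yap1, its known targets Ankrd1, at 532, 441 and 402 CPM in the KO libraries, against 1247, 1639 and 1587 CPM in the WT libraries (log2 fold change -1.7 ± 0.14 SE, edgeR adjusted p = 2.57e-05), Cyr61, Ctgf (-0.71 ± 0.15) and Amotl2 (-1.39 ± 0.22) fell, while the paralogue Wwtr1 rose (0.45 ± 0.09).

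Early response genes, which share their quick induction with the NR4A receptors, had 7 of 26 tested genes called higher and 12 lower. Their shares, 26.9% and 46.2%, stand beside 22.7% and 23.7% of all genes tested. The EGR factors rose: Egr1 stood at 111, 147 and 165 CPM in the KO libraries, against 21.6, 15.5 and 20.7 CPM in the WT libraries (log2 fold change 2.87 ± 0.18 SE, edgeR adjusted p = 6.34e-06), Egr2 at a log2 fold change of 2.26 ± 0.24 and Egr3 at 4.21 ± 0.19. The phosphatase Dusp1 fell, at 11.5, 13.6 and 15.3 CPM in the KO libraries, against 57.2, 61.2 and 63.2 CPM in the WT libraries (log2 fold change -2.17 ± 0.13 SE, edgeR adjusted p = 4.07e-06), with Fos (-1.64 ± 0.25), Jund (-1.49 ± 0.20) and Myc (-0.61 ± 0.19). Vasoactive peptides and receptors had 2 of 15 tested genes called higher and 10 lower, with a median log2 fold change of -1.21. Calcrl, the receptor of calcitonin-family peptides, rose, at 61.6, 61.9 and 66.2 CPM in the KO libraries, against 2.27, 2.62 and 3.01 CPM in the WT libraries (log2 fold change 4.58 ± 0.14 SE, edgeR adjusted p = 2.56e-07). Its partner Ramp3 fell, at 2.33, 2.55 and 2.44 CPM in the KO libraries, against 26.2, 76.5 and 76.5 CPM in the WT libraries (log2 fold change -4.61 ± 0.43 SE, edgeR adjusted p = 4.83e-05). The clearance receptor Npr3 (-3.13 ± 0.42) and the endothelin gene Edn1 (-2.85 ± 0.50) fell.

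Genes of the unfolded protein and integrated stress response had 7 of 25 tested genes called higher and 4 lower, and the median log2 fold change was 0.01. With 28% and 16%, this list is near the 22.7% and 23.7% of all genes tested, so its counts are no result. The stress factors Atf3, at 10.7, 7.22 and 9.09 CPM in the KO libraries, against 49.2, 30.3 and 32.00 CPM in the WT libraries (log2 fold change -2.04 ± 0.22 SE, edgeR adjusted p = 1.22e-04), and Ddit3, at 40.4, 41.3 and 42.4 CPM in the KO libraries, against 219, 81.2 and 88.1 CPM in the WT libraries, fell. For Ddit3 the log2 fold change was -1.65, or -1.05 without WT replicate 1, the highest library. The chaperone Hspa5 (-0.23 ± 0.10) and Atf4 (-0.23 ± 0.18) were not called.

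Markers of other cells moved in both directions. Of 7 tested adventitial fibroblast markers 5 were called higher and 1 lower, at a summed level of 802 to 875 CPM in the KO libraries and 512 to 700.0 CPM in the WT libraries. Scara5 stood at 113, 98.4 and 109 CPM in the KO libraries, against 14.4, 17.01 and 18.1 CPM in the WT libraries (log2 fold change 2.69 ± 0.12 SE, edgeR adjusted p = 9.73e-07) and Pdgfra averaged 76.2 ± 2.5 CPM across KO, against 33.8 ± 6.5 CPM across WT, while Cd34 fell, at 7.43, 6.94 and 8.34 CPM in the KO libraries, against 34.9, 43.8 and 40.8 CPM in the WT libraries (log2 fold change -2.39 ± 0.14 SE, edgeR adjusted p = 4.26e-06), and Pi16, Dpp4, Dpt, Clec3b and Lum did not pass the filter. Of 5 tested mesothelial and epithelial markers 0 were called higher (edgeR, DESeq2 and limma-voom, and at an unadjusted p below 0.05) and 4 lower, at a summed level of 81.6 to 85.2 CPM in the KO libraries and 283 to 428 CPM in the WT libraries. Msln (mesothelin) stood at 76.3, 79.3 and 76.6 CPM in the KO libraries, against 259, 397 and 397 CPM in the WT libraries (log2 fold change -2.18 ± 0.16 SE, edgeR adjusted p = 1.41e-05), and Krt8 at 0.43, 0.283 and 0.325 CPM in the KO libraries, against 9.0, 8.36 and 5.93 CPM in the WT libraries, while Upk3b, Lrrn4, Krt18, Epcam and Cdh1 did not pass the filter. Myod1, the skeletal muscle factor, averaged 4.58 ± 1.01 CPM across KO, against 52.5 ± 12.7 CPM across WT. Endothelial markers summed to 7.55 to 8.78 CPM in the KO libraries and 9.91 to 10.8 CPM in the WT libraries, with 0 of 3 called higher (edgeR, DESeq2 and limma-voom, also at an unadjusted p below 0.05) and 2 lower. Leukocyte markers summed to 50.6 to 54.4 CPM in the KO libraries and 65.5 to 97.4 CPM in the WT libraries, with 1 of 4 higher and 1 lower. Of 3 tested adipocyte markers Lpl was higher and Pparg and Fabp4 lower, as given above. Their sum, 991 to 1172 CPM in the KO libraries and 359.7 to 602 CPM in the WT libraries, was almost all Lpl, and the adipocyte hormone gene Adipoq had 0 to 1 counts. Cardiac and skeletal muscle markers had 1 of 4 higher and 1 lower, and Schwann and neuronal markers 1 of 4 higher and 0 lower (edgeR and DESeq2, with 2 lower at an unadjusted p below 0.05). With single libraries left out, the adventitial count higher was 4 to 7, the endothelial count lower was 1 without KO replicate 1 or 3, and the leukocyte count lower was 2 without WT replicate 1. The muscle count lower was 2 without WT replicate 3, and the Schwann and neuronal counts were 0 higher without any 1 of the KO libraries and 1 lower without WT replicate 1. The part of such markers in the results was not tested.

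Chromosomes differed as wholes, in a description chosen after the values were seen. Of the genes tested, 92.0% had a chromosome in RefSeq. The median log2 fold change was 0.31 on chromosome 14 (450 genes), 0.30 on chromosome 16 (418 genes) and 0.35 on chromosome 18 (365 genes). On chromosome 10 it was -0.25 (680 genes), on chromosome 5 it was -0.24 (881 genes) and on chromosome 6 it was -0.15 (672 genes). On the other 14 chromosomes it lay between -0.10 and 0.07. The genes called higher were 40.7%, 43.1% and 44.4% on chromosomes 14, 16 and 18, against 22.7% of all, and those called lower 15.3%, 15.6% and 12.3%. On chromosomes 5 and 10, 12.4% and 14.7% were called higher and 36.7% and 39.3% lower. The 3 libraries of each genotype lay together on these chromosomes, and on the log2(CPM + 1) scale the median differences without WT replicate 1 were 0.31, 0.30 and 0.33 on chromosomes 14, 16 and 18 and -0.19 and -0.24 on chromosomes 5 and 10. At day 1, in other libraries, the median differences of KO minus WT were 0.39 on chromosome 5 and 0.20 on chromosome 10. They were -0.07 on chromosome 14, -0.04 on chromosome 16 and 0.04 on chromosome 18. The scale there was log2(CPM + 1) with CPM of the library total, without TMM scaling. No day-1 median over all genes was taken as a baseline. The signs of the day-1 values, on chromosomes 5 and 10 as on 14, 16 and 18, are therefore not read. Only their order is: chromosomes 5 and 10 lay above 14, 16 and 18 at day 1 and below them at day 14. Genes of a chromosome share no replicate of their own, so no test is given.

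**Figure D5:**
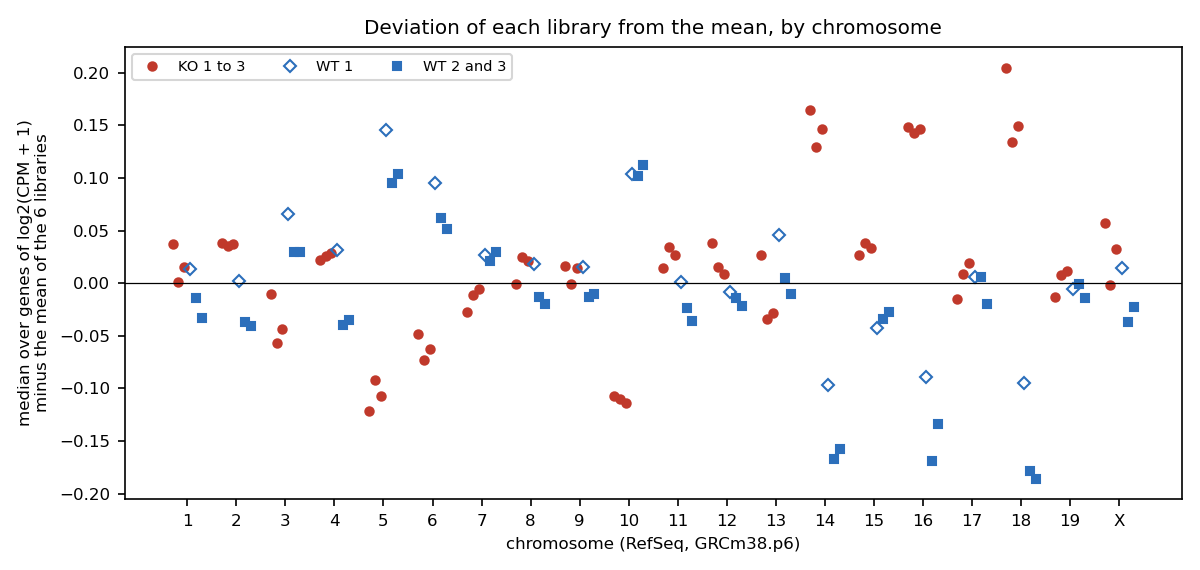
For each chromosome and library, the median over tested genes of log2(CPM + 1) minus the mean of the 6 libraries, with KO as circles, WT replicate 1 as open diamonds and WT replicates 2 and 3 as squares. On chromosomes 14, 16 and 18 the KO libraries lie at 0.13 to 0.21 and the WT libraries at -0.19 to -0.09, and on chromosomes 5 and 10 the order is turned round.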

How the data were processed

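RNA of 6 libraries, 3 per genotype, was sequenced, per the labels. The authors deposited raw read counts per gene symbol. The build was mm9, per the submitters' processing notes; no aligner, counter or strand setting is named in the labels used here. Overlapping and antisense genes may therefore share reads. Of 30866 lines 53 repeats were removed and 30813 used, among them 26 names turned into dates; 98.1% of names are in GENCODE M21. After filterByExpr, 14905 genes were tested by edgeR's quasi-likelihood F test after TMM scaling (edgeR 4.0.16, R 4.3.3), with Benjamini-Hochberg adjustment. SE is the log2 fold change divided by the square root of F. The scripts were tested on simulated data. Alternatives were RLE scaling, library size alone, DESeq2 1.42.0, limma-voom 3.58.1 with and without sample weights, other filters, a replicate block, all 12 libraries and each library left out. Counts limit precision only through counting error; replicate spread comes on top.

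The comparison and the gene lists were chosen with earlier results of these data known. Named genes are the 12 largest rises and falls by fold among well expressed, non-overlapping genes, the 6 largest by CPM in each direction (predicted, clone-named, small RNA and mt-tRNA names passed over), and up to 3 rising and 3 falling called members of each list. Other list members are named for their role, after their values were seen, and Hpgd, the rRNA-like lines and the chromosomes were likewise added after their values were seen. Gene order, chromosomes and promoters are RefSeq's (GRCm38.p6), used without converting coordinates.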

Additional observations from a re-analysis of the deposited data

How the results depend on the processing

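The number of genes called was 6918 as reported, and 6942 with RLE scaling, 6906 with library size alone, 7027 with DESeq2, 6875 with limma-voom, 8827 with sample weights, 7745 without a filter, 6623 with the CPM filter and 8297 with all 12 libraries. With 1 library left out it was 5182 to 9209, the highest without WT replicate 1 and the lowest without KO replicate 3. No gene called both as reported and under one of these settings changed sign. Library size alone shifted the median log2 fold change of all genes by -0.0687. The replicate block gave 6716 calls; same-numbered libraries correlated at 0.036, -0.037 and 0.0995 in their deviations, so the numbers are not taken as pairs.

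Of 216 named genes 197 kept their direction and call in every setting. Aldoc, Atp5o, C4a, Cdkn3, Cox5a, Cyld, Des, Eng, Fdps, Hk2, Loxl4, Mki67, Ndufa9, Nr4a1, Rbpj, Sav1, Sesn1, Sfrp4 and Stc2 lost their call in at least 1; the cause was not tested.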
